A study of Caenorhabditis elegans with 36 samples.

Results

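The 6 vitellogenin genes of *C. elegans*, vit-1 to vit-6, encode the precursors of yolk protein. Their small RNAs were followed here as a somatic set within libraries made from HRDE-1, an Argonaute of the germline. The members were taken by gene name and WBGene identifier in the WBcel235 annotation. All 6 were found among the 31106 annotated features of the count files, of which 19711 are protein-coding genes.

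Vitellogenins are made in the intestine of adult hermaphrodites, secreted into the body cavity and taken up by growing oocytes through the receptor RME-2. vit-1 and vit-2 encode a large yolk polypeptide, the close relatives vit-3, vit-4 and vit-5 encode another, and vit-6 encodes a precursor that is cut into smaller yolk polypeptides. HRDE-1 is a nuclear Argonaute, a protein that is guided by a small RNA to matching transcripts, and it acts in germ cells, where the vit genes are not transcribed. Most of its guides are 22G-RNAs, antisense siRNAs that RNA-dependent RNA polymerases copy from a target transcript.

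The samples were whole worms, 1-day-old adults grown at 20 °C, and every strain carried hrde-1(tor125[GFP::3xFLAG::hrde-1]), a tagged HRDE-1. The hrde-2 mutant added hrde-2/enri-3(qe20), a lesion in the gene for a HRDE-1 partner in germ granules. The simr-1 mutant added simr-1(cmp36), in the gene for a Tudor-domain protein of SIMR foci. The mut-2 mutant added mut-2(ne298), in the gene for the nucleotidyltransferase that adds poly(UG) tails to siRNA templates. The strain mut-2; hrde-2 carried mut-2(ne298) and hrde-2/enri-3(qe20), and simr-1 mut-2 carried simr-1(cmp36) and another mut-2 allele, mut-2(cmp306). The strain with the tag alone is called wild-type. Each genotype was 1 strain, and each lysate came from a pooled culture of staged animals. From each of 3 lysates per genotype a FLAG immunoprecipitate (IP) and the input lysate were sequenced as small RNAs, giving 36 libraries in 12 conditions. The methods describe the lysates of a genotype as biological replicates. The headers inside both wild-type replicate 2 files name replicate 1, and the labels were followed, so the values of wild-type lysate 2 carry that doubt.

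The libraries held 8206593 to 17448124 counts on genes in IPs and 4275760 to 10306745 in inputs. A level of 10 RPM (reads scaled to the library's counts on genes) therefore rested on 42.8 to 174 counts, and no vit gene had fewer than 38 counts in a library. Small RNAs of simr-1 served as a check of the labels. They were at 35.8, 30.9 and 29.8 RPM in simr-1 inputs, as labelled, against 136, 179 and 132 RPM in wild-type inputs. In simr-1 mut-2 inputs they were at 33, 27.2 and 25 RPM. That strain also carries a mut-2 lesion, so a fall from wild-type does not check its simr-1 label alone. Counts on hrde-2 and mut-2 remained in their mutants and gave no clear check. Structural RNAs (rRNA, tRNA, snRNA and snoRNA) took 1.17 to 3.19% of each IP and 8.31 to 34.9% of each input. File names fell into 2 numbering sets, one with the suffix -2 on 22 libraries. All libraries of the 3 mut-2 strains were in that set, together with hrde-2 lysate 1 and wild-type lysate 2. Whether the sets were separate sequencing runs is not given in the sources used here. Among features that reached 50 RPM, wild-type input replicate 2 had 40 that were at least 4-fold below both other replicates, simr-1 mut-2 input replicate 1 had 18 at least 4-fold above both, and no other library had more than 9 in either direction.

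The vit genes are long genes with few annotated neighbours inside them. vit-1 lies on X:7727889-7733168 on the plus strand and vit-2 on X:5101032-5106173 on the plus strand. vit-3 (X:3567355-3572549) and vit-4 (X:3558839-3563974) lie on the minus strand with 3380 bases between them, and vit-5 (X:3403471-3408603, plus strand) is 150235 bases from vit-4. vit-6 is the single member off the X chromosome, on IV:8261134-8266462 on the plus strand. The counts cover 4870 to 5090 bases of exon per gene. The non-coding RNAs T27A10.8, F59D8.3 and K07H8.16 overlap vit-3, vit-4 and vit-6, and none of the 3 passed 4.48 RPM in any library.

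Counting ignored strand, so antisense siRNAs of a vit gene and fragments of its mRNA cannot be told apart in these values. vit-3, vit-4 and vit-5 are nearly identical copies, and vit-1 and vit-2 are close to each other, so the share of a read given to each copy is uncertain. How reads with several places in the genome were aligned is not given in the sources used here. In whole worms, fewer cells of a type and less RNA per cell cannot be told apart.

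**Figure D1:**
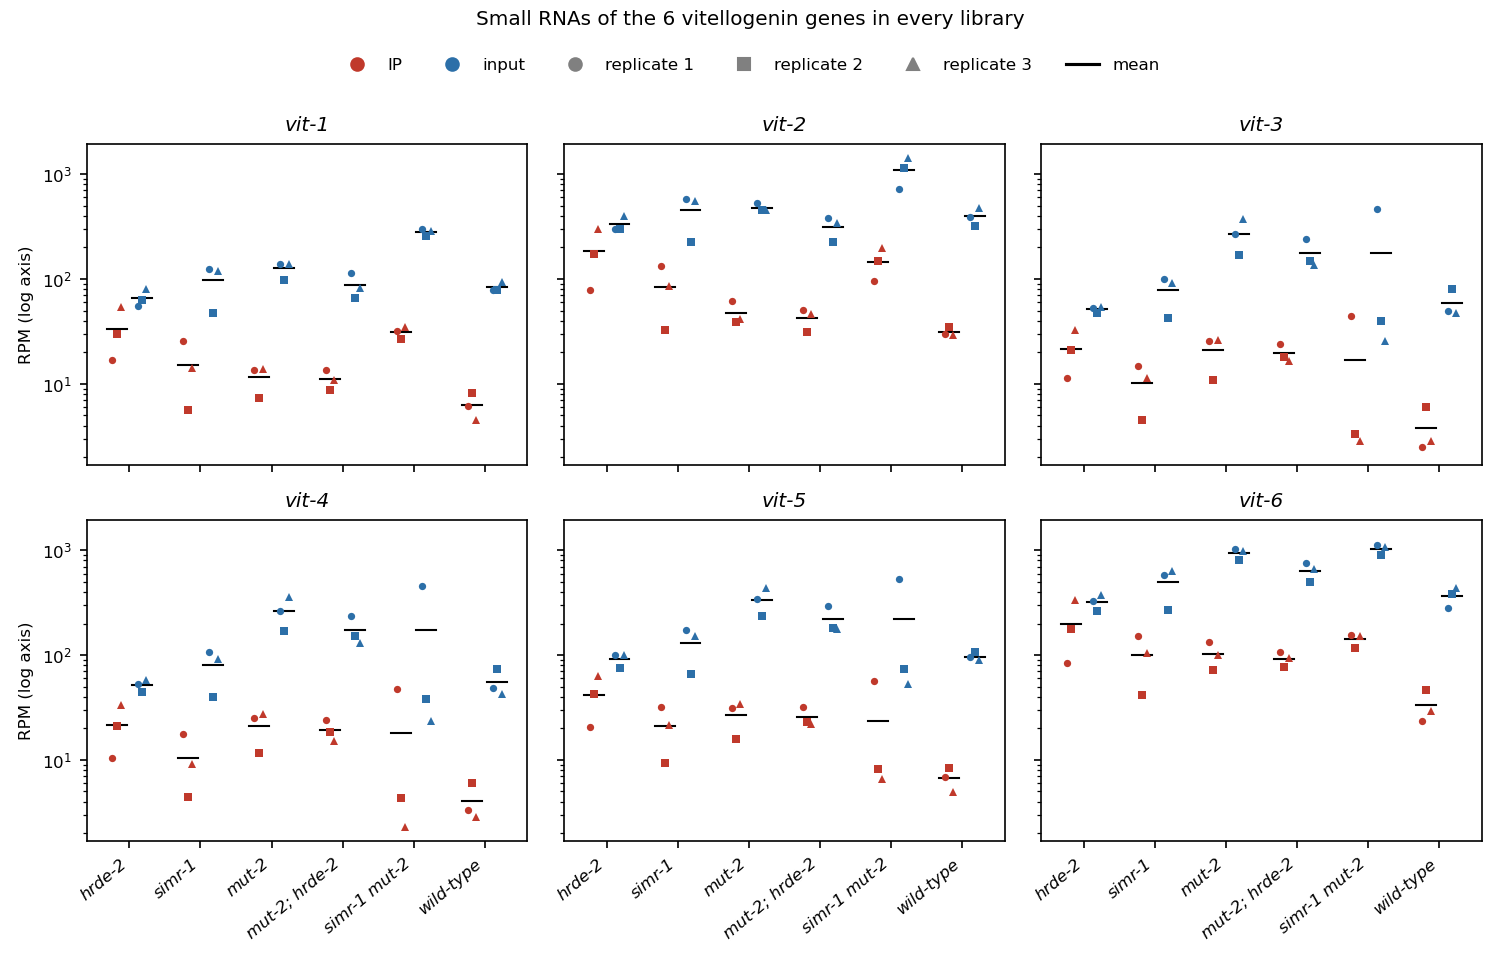
Small RNA level of each vit gene (RPM on a log axis) in every library of the 6 genotypes, with the IP (red) left of its input (blue), a marker shape per replicate and a line at the mean of 3. Each IP point lies under the input point of its own lysate, and in hrde-2 they come closest, as for vit-6 with 332 RPM in the IP and 378 RPM in the input of lysate 3.

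Per kilobase of exon, vit-6 and vit-2 had the most small RNA of the family in wild-type animals. In the wild-type IP the order of the means was vit-6 with 6.53 RPM per kb, vit-2 with 6.28, vit-5 with 1.38, vit-1 with 1.24, vit-4 with 0.84 and vit-3 with 0.77. There vit-6 had a level above 65.7% of protein-coding genes and vit-1 above 46.8%. In the wild-type input, vit-2 had 80.1 and vit-6 had 71.7 RPM per kb, above 95.5% and 94.9% of protein-coding genes, followed by vit-5 at 19.9, vit-1 at 16.3, vit-3 at 12 and vit-4 at 11.3 RPM per kb. Some neighbours lay close beside the spread between libraries (SD, n = 3 each). vit-2 and vit-6 inputs had 396 ± 76.9 and 365 ± 75.9 RPM, with the reverse order in replicate 2 (320 against 380 RPM). vit-3 and vit-4 inputs had 59.1 ± 19 and 55.0 ± 16.7 RPM, with vit-3 higher in each library. vit-6 and vit-2 IPs had 33.3 ± 12.1 and 31.1 ± 3.08 RPM, with the reverse order in replicate 1 (23.7 against 29.7 RPM). vit-5 and vit-1 IPs had 6.71 ± 1.71 and 6.33 ± 1.86 RPM, and vit-4 and vit-3 IPs 4.07 ± 1.70 and 3.78 ± 1.91 RPM.

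The vit genes had far less small RNA in the wild-type HRDE-1 IPs than in the inputs of the same lysates. Together the 6 genes had 85.2 ± 21.4 RPM in wild-type IPs and 1055 ± 116 RPM in wild-type inputs (SD, n = 3 each). vit-2 had 29.7, 34.6 and 29 RPM in the 3 wild-type IPs, against 395, 320 and 474 RPM in their inputs. vit-6 had 23.7, 46.8 and 29.3 RPM in the IPs, against 283, 380 and 432 RPM in the inputs. Every IP value of both genes lay under every input value. How many of all features did the same was not counted.

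edgeR's quasi-likelihood test, with calls at 2-fold and a Benjamini-Hochberg adjusted p of at most 0.05 over all features tested, called all 6 vit genes lower in wild-type IP than in input. The background was 25.3% of 14477 features called lower and 28.9% called higher. The log2 fold changes ran from -3.64 (vit-3) to -3.12 (vit-6), which is 8.71 to 12.4-fold lower, with adjusted p from 3.71e-05 to 0.000131. The median over all features tested was 0.15. The vit sum in the wild-type IPs was at 7.62, 10.6 and 6.23% of its input level, and structural RNA in the same IPs was at 10.8, 10.5 and 8.05% of its input share, so the ranges overlap. The part of background carry-over in these values was not tested.

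In the hrde-2 mutant the vit RNA in the HRDE-1 IP was several times higher than in wild-type, while no vit gene was called in the inputs. vit-2 had 77.9, 174 and 301 RPM in hrde-2 IPs, against 29.7, 34.6 and 29 RPM in wild-type IPs. vit-6 had 84.3, 176 and 332 RPM in hrde-2 IPs, against 23.7, 46.8 and 29.3 RPM in wild-type IPs. For both genes the lowest hrde-2 IP was above the highest wild-type IP, and the 3 hrde-2 IPs spread widely, with lysate 1 lowest.

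The other members had the same pattern at lower levels. vit-1 was at 16.8, 29.8 and 54.2 RPM in hrde-2 IPs, against 6.21, 8.24 and 4.54 RPM in wild-type IPs. vit-5 was at 20.8, 42.5 and 62.6 RPM in hrde-2 IPs, against 6.89, 8.33 and 4.93 RPM in wild-type IPs. Neither gene overlapped between the genotypes, and the same held for vit-3 (lowest hrde-2 IP 11.5 RPM, highest wild-type IP 5.98 RPM) and vit-4 (lowest hrde-2 IP 10.5 RPM, highest wild-type IP 6.02 RPM). The share of all features that likewise did not overlap was not counted. Many features moved between these genotypes, with 33.7% called higher and 36.1% lower in the difference of IP over input given below. The summed level was 501 ± 299 RPM in hrde-2 IPs and 85.2 ± 21.4 RPM in wild-type IPs (SD, n = 3 each).

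In the inputs of the same lysates the 2 genotypes overlapped. vit-2 had 300, 302 and 402 RPM in hrde-2 inputs, against 395, 320 and 474 RPM in wild-type inputs, and vit-6 had 329, 261 and 378 RPM in hrde-2 inputs, against 283, 380 and 432 RPM in wild-type inputs. edgeR's quasi-likelihood test called 0 of 6 vit genes between hrde-2 and wild-type inputs, 0 of them had an unadjusted p under 0.05 and DESeq2 also called 0. The background was 4.06% of features called higher and 10.0% lower, and the 6 log2 fold changes ran from -0.18 to 0.08, with standard errors of 0.14 to 0.22.

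**Figure D2:**
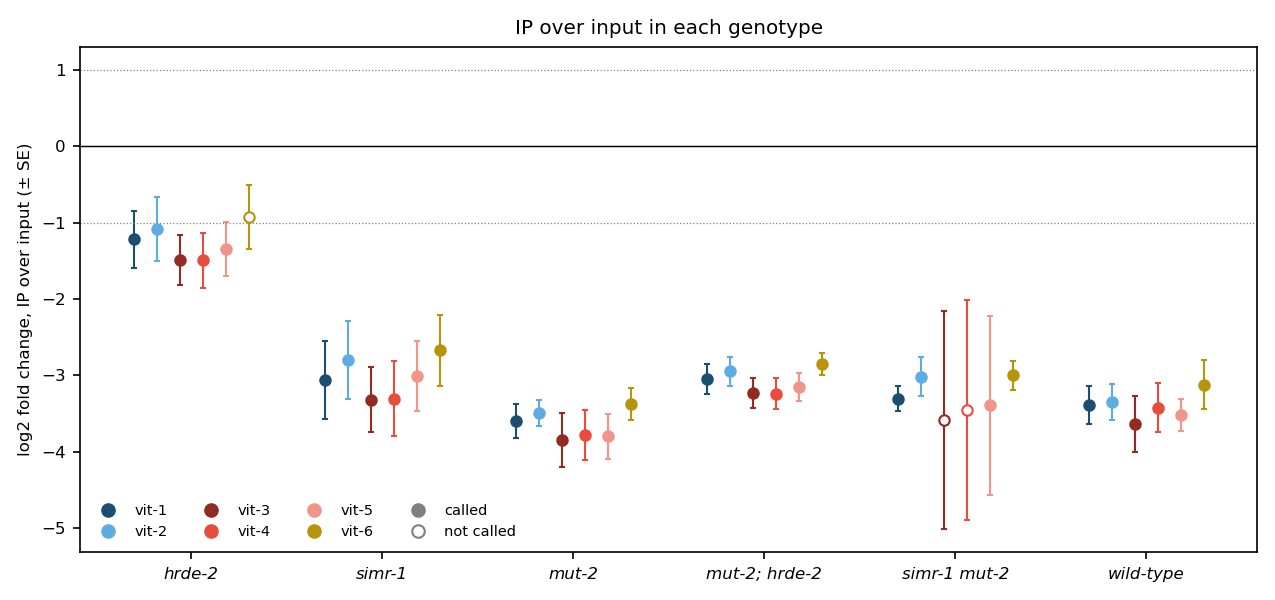
log2 fold change of IP over input for each vit gene in each genotype (± SE, 3 IPs and 3 inputs per fit, edgeR's quasi-likelihood fit), filled where called and open where not, with dotted lines at 2-fold. All 36 values are under 0, from -3.85 to -0.93, and the 6 hrde-2 values are nearest to 0.

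Even so, vit RNA was still lower in the hrde-2 IP than in its own input. The test called 5 of 6 vit genes lower in hrde-2 IP than in input, against a background of 41.9% of features called lower and 28.5% called higher. The log2 fold changes were -1.22 for vit-1, -1.08 for vit-2, -1.49 for vit-3, -1.49 for vit-4 and -1.35 for vit-5, while vit-6 had -0.93 (adjusted p = 0.0671, edgeR's quasi-likelihood test) and was not called. With the lysate as a block, vit-6 was called as well, at -1.12 (adjusted p = 0.000785). 1 library decided much of this count, since 2 genes (vit-3 and vit-4) were called without IP replicate 1, 3 without IP replicate 2 and 6 without IP replicate 3.

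The difference itself was tested as an interaction, IP over input in hrde-2 minus IP over input in wild-type. The 5 mutants were all set against the same wild-type libraries. All 6 vit genes were called higher in hrde-2, by log2 differences of 2.51 ± 0.48 for vit-1, 2.60 ± 0.51 for vit-2, 2.50 ± 0.51 for vit-3, 2.27 ± 0.51 for vit-4, 2.51 ± 0.44 for vit-5 and 2.53 ± 0.56 for vit-6 (SE, 12 libraries). These are 4.83 to 6.07-fold, with adjusted p from 0.000133 to 0.00111 by edgeR's quasi-likelihood test. The background was high, with 33.7% of 15444 features called higher and 36.1% lower, and the median of all features was -0.07. Within the numbering set that held hrde-2 lysates 2 and 3 and wild-type lysates 1 and 3, the 6 differences were 2.73 to 3.21, all called. The other set held 1 lysate of each genotype and allows no test. With any 1 of the 6 lysates left out, all 6 genes were still called, at 1.98 to 2.94.

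**Figure D3:**
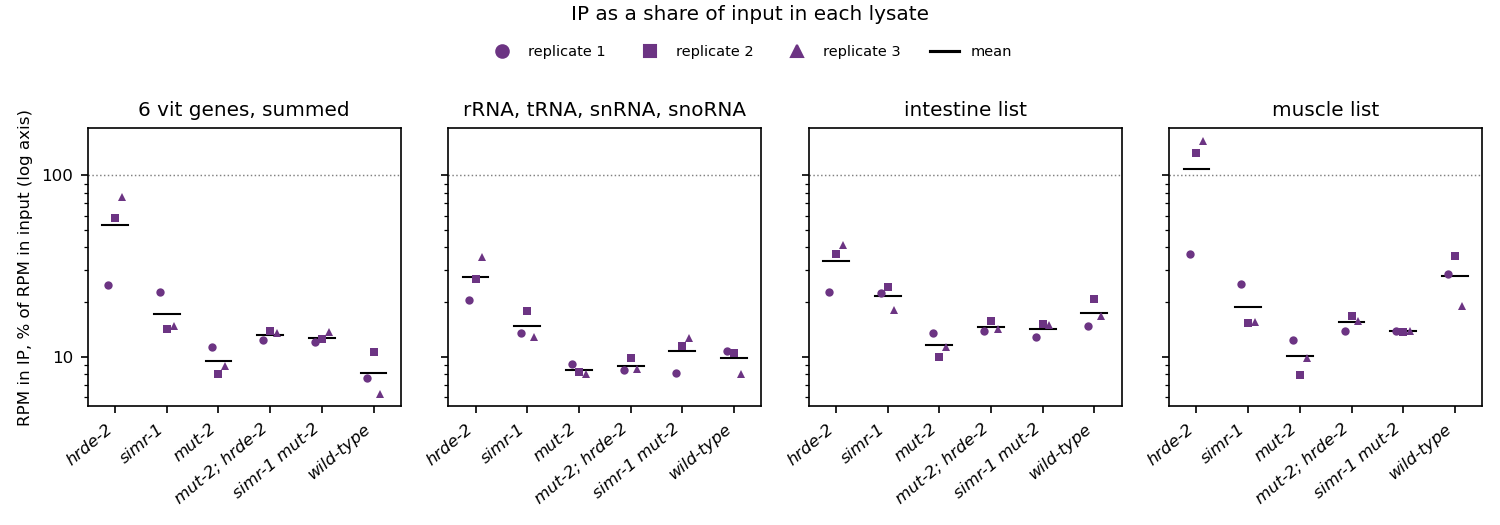
RPM in the IP as a percentage of RPM in the input of the same lysate (log axis), for the 6 vit genes summed, structural RNA, the intestine list and the muscle list, with a line at the mean of 3 lysates and a dotted line at 100%. For the vit sum the hrde-2 lysates lie at 24.9 to 76.1%, simr-1 at 14.3 to 22.6%, and the mut-2 strains and wild-type at 6.23 to 13.8%, and the hrde-2 lysates are also the highest of all genotypes for structural RNA and muscle.

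As a share of its own input, the vit sum was at 24.9, 58.4 and 76.1% in the 3 hrde-2 IPs, against 7.62, 10.6 and 6.23% in the wild-type IPs. Several other classes of small RNA moved in the same libraries. Structural RNA was at 20.5, 26.8 and 35.5% of its input share in hrde-2, against 10.8, 10.5 and 8.05% in wild-type. The muscle marker list (unc-54, unc-15, myo-1, myo-2 and myo-3, genes of the contractile apparatus) was at 36.9, 132 and 156% of its input level in hrde-2, against 28.4, 35.7 and 19% in wild-type. hrde-2 lysate 1 was the lowest of its genotype for all 3 measures.

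Markers of the intestine, the tissue that makes yolk, were measured in the same libraries. The summed level of the 10 intestine markers was 18.0, 31.7 and 33.2 RPM in hrde-2 IPs and 79.4, 85.7 and 80.5 RPM in hrde-2 inputs. It was 21.1, 15.4 and 16.6 RPM in wild-type IPs and 144, 73.9 and 98.8 RPM in wild-type inputs, and none of the 10 was at 0 in all libraries of a condition. Of the 9 tested for the difference between hrde-2 and wild-type, 2 were higher (pept-1, a peptide transporter of the gut, at 1.77, and asp-1, an intestinal protease, at 1.90) and 1 was lower (cpr-6, a cathepsin-type protease, at -1.14), with a median of 0.72. Of the germline markers 9 of 10 were called higher, with a median of 2.46, and of the muscle markers 4 of 5, with a median of 2.74. Neuron markers ran the other way, with 1 higher and 4 lower of 6 and a median of -2.96. Sperm markers had 0 higher and 1 lower of 6 (median -0.55), and hypodermis markers 1 higher and 1 lower of the 2 tested (median -0.57). These counts stand beside 33.7% of all features called higher and 36.1% lower. The part of these classes, of structural RNA and of lysate 1 in the vit result was not tested.

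**Figure D4:**
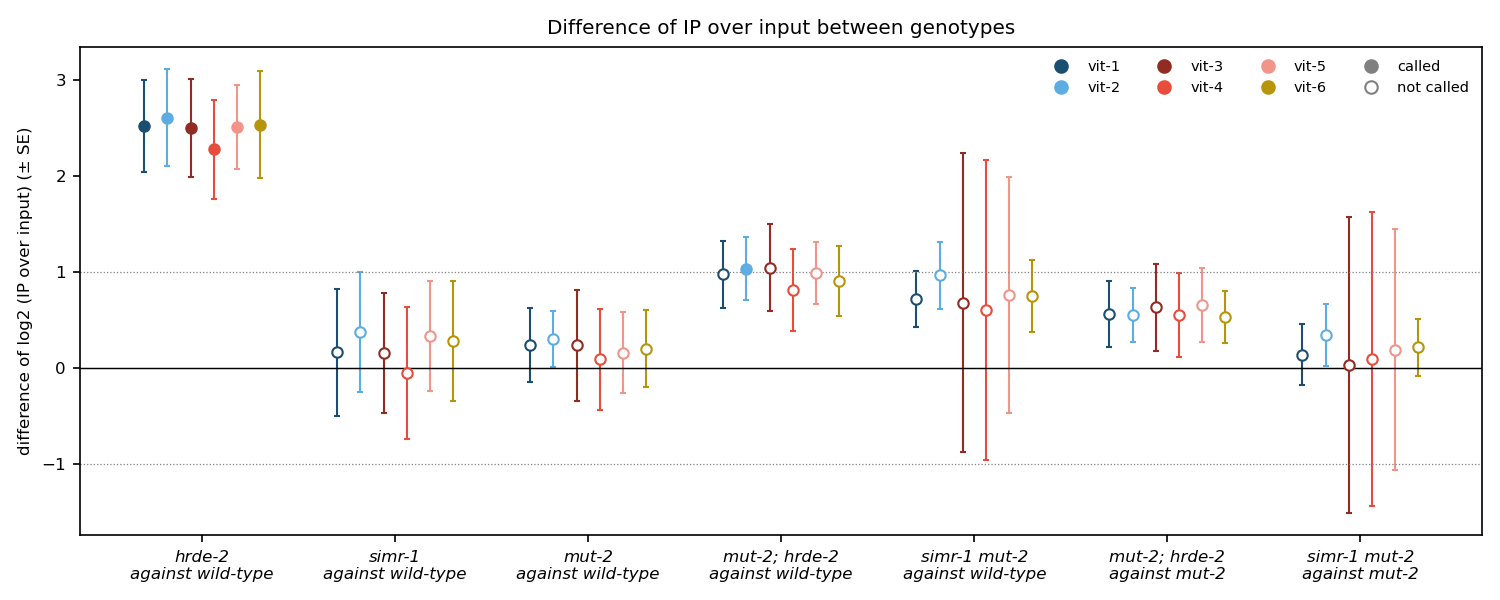
Difference of log2 IP over input between 2 genotypes for each vit gene (± SE, 12 libraries per fit), for the 5 mutants against wild-type and the double mutants against mut-2, filled where called, with dotted lines at 2-fold. hrde-2 stands at 2.27 to 2.60, and all other differences lie between -0.05 and 1.04.

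In simr-1 no vit gene was called for such a difference. vit-2 had 133, 32.7 and 85.5 RPM in simr-1 IPs and 579, 227 and 561 RPM in simr-1 inputs, so lysate 2 was lowest in both fractions. vit-6 had 153, 42.1 and 104 RPM in simr-1 IPs and 581, 268 and 638 RPM in simr-1 inputs, with the same lysate lowest. All 6 vit genes were called lower in simr-1 IP than in input (background 21.6% lower and 8.42% higher), at log2 values of -3.32 to -2.67. In RPM, the vit sum was at 22.6, 14.3 and 14.8% of its input in simr-1 IPs, above the 7.62, 10.6 and 6.23% in wild-type IPs. Structural RNA was at 13.6, 17.8 and 12.9% of its input share in simr-1, against 10.8, 10.5 and 8.05% in wild-type.

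Against wild-type, the simr-1 difference of IP over input ran from -0.05 (vit-4) to 0.37 (vit-2), with standard errors of 0.58 to 0.69. edgeR's quasi-likelihood test called 0 of 6, none had an unadjusted p under 0.05 and DESeq2 called 0, against a background of 9.37% higher and 21.9% lower. The median of the 6 vit genes was 0.22, beside -0.63 for all features. When libraries were scaled by size alone these medians were 1.09 and 0.23, still with no vit gene called, and within the numbering set without the suffix the vit median was 0.46. In the inputs of simr-1 against wild-type the log2 fold changes were 0.26 to 0.63 and again 0 of 6 were called (background 1.19% higher and 13.2% lower; 0 with an unadjusted p under 0.05, 0 by DESeq2).

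In mut-2 animals vit RNA was again far lower in the IP than in input. vit-6 had 133, 71.9 and 100 RPM in mut-2 IPs and 1030, 816 and 983 RPM in mut-2 inputs. vit-3 had 25.5, 11 and 26.4 RPM in mut-2 IPs and 267, 168 and 378 RPM in mut-2 inputs. All 6 genes were called lower in IP than in input (background 22.3% lower and 13.4% higher), from -3.85 for vit-3 to -3.37 for vit-6, which is 10.4 to 14.4-fold. The difference from wild-type was 0.09 to 0.30, and 0 of 6 were called (background 28.4% higher and 9.64% lower; 0 with an unadjusted p under 0.05, 0 by DESeq2). The median of the 6 was 0.22, beside 0.44 for all features. Within the numbering set whose lone wild-type lysate was lysate 2, the vit median was -0.94.

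In animals mutant for both genes (mut-2; hrde-2) every vit IP value was again far under its input. vit-2 had 50.3, 31.1 and 46.9 RPM in mut-2; hrde-2 IPs and 385, 226 and 339 RPM in mut-2; hrde-2 inputs. vit-6 had 107, 76.8 and 93.7 RPM in the IPs and 762, 499 and 656 RPM in the inputs. The IP and input ranges of both genes did not overlap. How many of all features likewise did not overlap was not counted. The test called all 6 genes lower in IP than in input (background 28.9% lower and 2.96% higher), at -3.24 to -2.85. The vit sum in these IPs was at 12.3, 13.8 and 13.5% of input.

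Against mut-2, the mut-2; hrde-2 difference of IP over input was 0.53 to 0.65 with standard errors of 0.27 to 0.45. 0 of 6 were called by edgeR's quasi-likelihood test or by DESeq2, 0 had an unadjusted p under 0.05, and the background was 1.74% higher and 21.4% lower. Against wild-type the differences were 0.81 to 1.04, and 1 of 6, vit-2, was called, at 1.03 ± 0.33 (adjusted p = 0.0152; background 28.9% higher and 20.3% lower). This call was not stable. DESeq2 and scaling by library size called 0, leaving out 1 lysate gave 0 to 5 called (0 without mut-2; hrde-2 lysate 3 or without wild-type lysate 1 or 3), and with the lysate as a block 3 were called, vit-2, vit-3 and vit-5, at 1.01 to 1.09. Within the numbering set that held wild-type lysate 2 and all double mutant libraries, the 6 differences were -0.70 to -0.33. The wild-type side of that fit is a lone lysate without a replicate, so the turned direction rests on it. Whether the hrde-2 mutation acted differently with and without mut-2 was not tested.

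In simr-1 mut-2 the IP shares were again low and close together. The vit sum in the IPs was at 12, 12.6 and 13.6% of input, although the copies vit-3, vit-4 and vit-5 differed between lysates as described further on. The test called 4 of 6 genes lower in IP than in input (background 22.5% lower and 3.75% higher). vit-3 had -3.59 (adjusted p = 0.0700) and vit-4 -3.45 (adjusted p = 0.0804) and were not called, and with the lysate as a block both were called, at -3.51 and -3.37 (adjusted p = 6.76e-08 and 5.99e-08 by edgeR's quasi-likelihood test). The difference from wild-type was 0.60 to 0.96 and that from mut-2 was 0.03 to 0.34. 0 of 6 were called in either, by edgeR's quasi-likelihood test or DESeq2, with 2 and 0 at an unadjusted p under 0.05 (background 28.6% higher and 12.5% lower against wild-type, 0.114% higher and 10.7% lower against mut-2). Without simr-1 mut-2 lysate 1, vit-2 was called against wild-type, at 1.01, in a fit with 4361 of 15434 features called higher and 1446 lower. Within the numbering set whose lone wild-type lysate was lysate 2, the median difference from wild-type was -0.55, in place of 0.73.

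In the mut-2 inputs some vit genes were higher than in wild-type. vit-3 had 267, 168 and 378 RPM in mut-2 inputs, against 49.2, 81.0 and 47.2 RPM in wild-type inputs. vit-6 had 1030, 816 and 983 RPM in mut-2 inputs, against 283, 380 and 432 RPM in wild-type inputs. vit-2 had 529, 457 and 451 RPM in mut-2 inputs, against 395, 320 and 474 RPM in wild-type inputs. The mut-2 inputs were above every wild-type input for vit-3 and vit-6, and the ranges overlapped for vit-2. The share of all features whose mut-2 inputs likewise lay above every wild-type input was not counted. By calls, 11.1% of all features were higher and 33.1% lower in mut-2 inputs.

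edgeR's quasi-likelihood test called 4 of 6 vit genes higher in mut-2 inputs than in wild-type inputs, against a background of 11.1% higher and 33.1% lower. They were vit-3 at 1.87 ± 0.33 (adjusted p = 0.000855), vit-4 at 1.92 ± 0.31 (adjusted p = 0.000493), vit-5 at 1.47 ± 0.24 (adjusted p = 0.000547) and vit-6 at 1.03 ± 0.24 (adjusted p = 0.0036), all log2 with SE. vit-1 was at 0.28 ± 0.20 and vit-2 at -0.06 ± 0.21, and neither was called. Within the numbering set that held all mut-2 libraries and wild-type lysate 2, vit-3 was at 1.19 (adjusted p = 0.0471), vit-4 at 1.27 (adjusted p = 0.0294) and vit-5 at 1.11 (adjusted p = 0.0283), all called, and vit-6 at 0.75 was not called. That fit assumes that the lone wild-type input varies like the mut-2 inputs. vit-6 was near the threshold and was called in 1 of the 6 fits that left out a library, while vit-3, vit-4 and vit-5 were called in all 6. Whether vit-3 to vit-5 and vit-1 and vit-2 differed from each other in this comparison was not tested.

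Structural RNA made up 30.7 to 34.9% of mut-2 inputs and 11.2 to 19.1% of wild-type inputs. In counts on protein-coding genes and pseudogenes alone the same 4 vit genes were called, at 1.00 to 1.92. The intestine markers did not follow as a list, with 0 called higher and 2 lower (pho-1, an intestinal phosphatase, and nhx-2, an intestinal sodium-proton exchanger) of 9 tested and a median of 0.29. The summed intestine level was 173, 158 and 186 RPM in mut-2 inputs and 144, 73.9 and 98.8 RPM in wild-type inputs. The part of structural RNA and of intestinal tissue in the vit change was not tested.

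**Figure D5:**
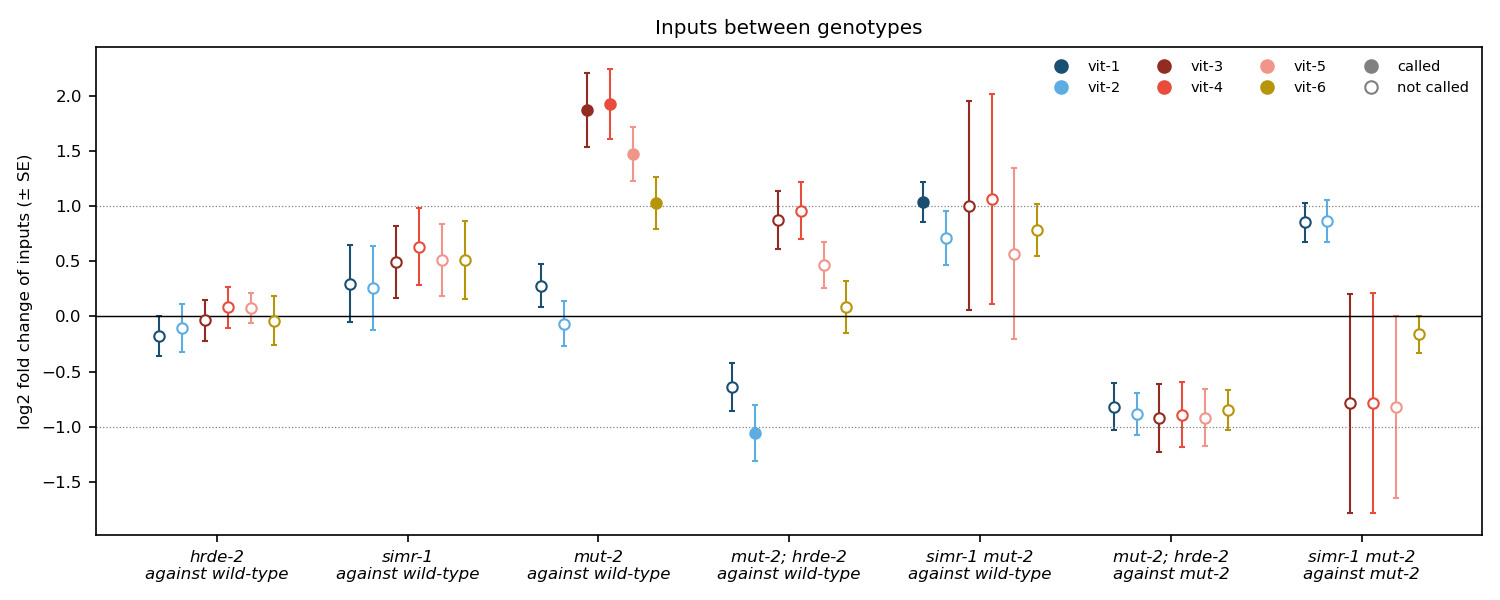
log2 fold change of input levels between 2 genotypes for each vit gene (± SE, 6 inputs per fit), for the 5 mutants against wild-type and the double mutants against mut-2, filled where called, with dotted lines at 2-fold. In mut-2 against wild-type vit-3, vit-4, vit-5 and vit-6 stand at 1.03 to 1.92 and vit-1 and vit-2 near 0, and the widest bars are those of vit-3, vit-4 and vit-5 in simr-1 mut-2.

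In mut-2; hrde-2 inputs, vit-3 had 241, 150 and 135 RPM and vit-2 had 385, 226 and 339 RPM, against 49.2, 81.0 and 47.2 RPM for vit-3 and 395, 320 and 474 RPM for vit-2 in wild-type inputs. vit-3 did not overlap between the genotypes and vit-2 did. How many of all features likewise did not overlap was not counted. 1 of 6 genes was called against wild-type, vit-2, lower at -1.05 (background 10.8% higher and 36.9% lower), while vit-3 was at 0.87, vit-4 at 0.96, vit-5 at 0.47, vit-1 at -0.64 and vit-6 at 0.09. This call depended on the scaling. Scaled by library size alone, the median of all features moved to 0.49, against -0.22, vit-2 was at -0.32 and not called, and vit-3, vit-4 and vit-5 were called higher at 1.57, 1.65 and 1.17. Under that scaling 4980 of 13527 features were called higher and 4204 lower. DESeq2 called vit-4 alone, higher. Leaving out 1 library gave 1 to 3 calls, and vit-2 was not among them without mut-2; hrde-2 input replicate 2. Within the numbering set that held wild-type lysate 2, none was called and vit-2 was at -0.90.

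Against mut-2 inputs, all 6 vit genes in mut-2; hrde-2 inputs had log2 values between -0.92 and -0.82. None reached the 2-fold limit, although 6 had an unadjusted p under 0.05 and 3 (vit-1, vit-2 and vit-6) an adjusted p of at most 0.05 by edgeR's quasi-likelihood test (background 0.343% higher and 6.21% lower, 0 called by DESeq2). All 6 were called lower without mut-2; hrde-2 input replicate 1, at -1.24 to -1.01, and 3 (vit-3, vit-4 and vit-5) without mut-2 input replicate 2.

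In simr-1 mut-2 the 3 lysates disagreed over vit-3, vit-4 and vit-5. vit-3 was at 44.8, 3.35 and 2.87 RPM in the IPs of lysates 1, 2 and 3 and at 468, 39.9 and 25.4 RPM in their inputs. vit-4 was at 47.5, 4.36 and 2.30 RPM in the IPs and 455, 38 and 23.5 RPM in the inputs. vit-5 was at 56.4, 8.15 and 6.58 RPM in the IPs and 529, 73.7 and 53.1 RPM in the inputs. Lysate 1 was thus high in both fractions, and IP over input stayed between 8.38 and 12.4% for these copies in all 3 lysates.

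In the other vit genes lysate 1 was not set apart in this way. vit-1 was at 298, 255 and 290 RPM in simr-1 mut-2 inputs and vit-6 at 1114, 903 and 1085 RPM. vit-2 ran the other way, with 728 RPM in lysate 1 and 1134 and 1420 RPM in lysates 2 and 3. The ratio of vit-3, vit-4 and vit-5 to vit-1 and vit-2, each summed, was 1.42, 0.109 and 0.0596 in simr-1 mut-2 inputs, 1.54, 1.67 and 1.05 in mut-2; hrde-2 inputs, 1.30, 1.03 and 1.97 in mut-2 inputs and 0.408, 0.655 and 0.317 in wild-type inputs. So lysate 1 fell within the range of the other mut-2 strains, and lysates 2 and 3 lay under every wild-type input.

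Tests on these copies in simr-1 mut-2 therefore rest on lysate 1. With all libraries, 1 of 6 genes was called against wild-type inputs, vit-1, higher at 1.04 ± 0.18 (adjusted p = 0.000827 by edgeR's quasi-likelihood test; background 11.8% higher and 35.3% lower), and vit-3, vit-4 and vit-5 were at 1.00, 1.06 and 0.57 with standard errors of 0.77 to 0.95. Without simr-1 mut-2 input replicate 1, vit-3, vit-4 and vit-5 were called lower than in wild-type, at -1.71, -1.69 and -1.47. In that fit 4896 of 13183 features were called lower and 1189 higher, with a median of -0.28. vit-1 itself was not called when any 1 of the wild-type input replicates was left out, at values down to 0.70. Scaled by library size alone, vit-1, vit-2 and vit-6 were called higher, at 1.46 to 1.76, with a median of all features of 0.58 in place of -0.13. Under that scaling 5372 of 13560 features were called higher and 4087 lower. Within the numbering set that held wild-type lysate 2, none was called and vit-1 was at 0.89.

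Against mut-2 inputs, 0 of 6 vit genes were called in simr-1 mut-2 inputs by edgeR's quasi-likelihood test or DESeq2, with 2 at an unadjusted p under 0.05 (background 3.57% higher and 6.98% lower). These 2 were vit-1 at 0.85 and vit-2 at 0.86, both under the 2-fold limit. Without simr-1 mut-2 input replicate 1, 4 were called, vit-3, vit-4 and vit-5 lower at -3.46, -3.49 and -2.81 and vit-2 higher at 1.03. The simr-1 mut-2 strain carries another mut-2 allele than mut-2, so allele and simr-1 cannot be told apart here.

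Across the 12 condition means the vit genes followed each other closely, most of all within the groups of copies. On the log2(RPM + 1) scale, Pearson's r was 0.9997 for vit-3 with vit-4 and 0.992 for vit-1 with vit-2, and the lowest of the 15 pairs was vit-2 with vit-3 at 0.861. These are descriptions over 12 conditions that share libraries and the contrast of IP with input, and near-identical copies may share reads.

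The features whose profile over the 12 conditions was most like the vit mean came from several biotypes. Among 7604 features with a mean of at least 10 RPM and no overlap with a vit gene, far-2, which encodes a fatty acid and retinol binding protein, was first with r = 0.995. It had 14.1 RPM in hrde-2 IPs and 26.7 RPM in hrde-2 inputs, against 2.52 RPM in wild-type IPs and 32 RPM in wild-type inputs, as means. The overlapping non-coding RNAs K10H10.11 and K10H10.14 (r = 0.995 and 0.994), the protein-coding gene C39D10.7 (0.994) and the snoRNA T06C12.16 (0.992) came next.

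Genes that handle yolk after it is made were taken as a list of 6. rme-2, the yolk receptor of oocytes, had 526, 492 and 521 RPM in hrde-2 IPs and 351, 339 and 348 RPM in hrde-2 inputs, against 63.8, 76.7 and 65.1 RPM in wild-type IPs and 268, 418 and 256 RPM in wild-type inputs. Its IP was above input in every hrde-2 lysate and under input in every wild-type lysate, and no vit gene was above input in any of the 18 lysates. The difference of IP over input was 2.52 for rme-2. Of the 6 genes of yolk uptake and assembly, 3 were called higher in hrde-2 than in wild-type (rme-2, and the endocytosis genes rme-8 at 3.36 and rme-1 at 3.22) and 1 lower, beside 33.7% of all features higher and 36.1% lower.

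The lower gene was dsc-4, which encodes a lipid transfer protein for the assembly of lipoproteins, at -3.02. It had 1.33, 1.55 and 2.68 RPM in hrde-2 IPs and 6.91, 8.29 and 7.09 RPM in hrde-2 inputs, against 18.8, 13.5 and 15.9 RPM in wild-type IPs and 10.9, 8.58 and 9.17 RPM in wild-type inputs. Its wild-type IPs were above every wild-type input, the reverse of the vit genes. Of all features, 28.9% were called higher in wild-type IP than in input. In mut-2 inputs against wild-type inputs, rme-2 was called higher at 1.08, and dsc-4 at -2.01 and rme-6, an endocytosis gene, at -3.13 were called lower. That is 1 of 6 higher and 2 of 6 lower, near the 11.1% of all features called higher and 33.1% lower.

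The transcription factors and kinases that control vit transcription had no common direction. Of 9 tested for the difference of IP over input between hrde-2 and wild-type, 2 were higher (unc-62, a homeodomain cofactor, at 2.67, and rict-1, a subunit of a TOR complex, at 2.59) and 4 were lower (sgk-1, daf-16, elt-7 and mab-3), with a median of -0.88, beside 33.7% of all features higher and 36.1% lower. Their summed level was 371 RPM in hrde-2 IPs and 250 RPM in hrde-2 inputs, against 518 RPM in wild-type IPs and 273 RPM in wild-type inputs, as means. Within the list, elt-2, the main GATA factor of the intestine, did not pass 1.97 RPM in any library.

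Across the 6 genotypes the intestine markers shared the direction of the vit genes in IP over input. Of those tested, 8 of 8 were called lower in hrde-2, 8 of 9 in simr-1, 8 of 8 in mut-2, 6 of 6 in mut-2; hrde-2, 7 of 7 in simr-1 mut-2 and 7 of 9 in wild-type. None was called higher. Of all features, 41.9% were called lower in hrde-2, 21.6% in simr-1, 22.3% in mut-2, 28.9% in mut-2; hrde-2, 22.5% in simr-1 mut-2 and 25.3% in wild-type. The intestine median was -2.13 in hrde-2 and -2.56 in wild-type, and the vit medians were -1.28 in hrde-2 and -3.41 in wild-type. The direction was not particular to the intestine list. Of the muscle markers, 5 of 5 were called lower in every genotype but hrde-2, with a median of -2.44 in wild-type. In hrde-2, 0 of 5 were called, with a median of 0.04. Structural RNA lay at 7.99 to 35.5% of its input share over all lysates. Neuron markers had no common direction over the genotypes. In wild-type 3 of 6 were called higher and 0 lower, and in hrde-2 1 of 5 higher and 4 lower. In simr-1 0 of 6 were called, and in mut-2 2 of 5 were higher and 2 lower. In mut-2; hrde-2 0 of 3 were higher and 2 lower, and in simr-1 mut-2 0 of 3 higher and 1 lower. Of all features, 28.9% were called higher in wild-type, 28.5% in hrde-2, 8.42% in simr-1 and 13.4% in mut-2. That share was 2.96% in mut-2; hrde-2 and 3.75% in simr-1 mut-2.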

How the data were processed

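Small RNAs of 18 to 30 nucleotides from FLAG IPs and inputs were treated with 5' polyphosphatase and sequenced. The deposited values are expected counts per gene: the authors trimmed adapters (cutadapt 3.4), aligned reads with Bowtie2 2.5.0 and counted them with featureCounts of Subread 2.0.1, dividing a read among overlapping features, without strand. Of the values above 0, 10.4% were not whole. Counts were rounded for tests, and RPM was computed from the unrounded counts over all counts on genes. Names and lengths came from the WBcel235 annotation (Ensembl 115), which held 30911 of the 31106 features. The number of columns of per-sample values left unused was 0.

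Tests were edgeR 4.0.16 quasi-likelihood fits with TMM in R 4.3.3, on features that reached 10 counts in 3 libraries or more, for 6 comparisons of IP with input, 7 interactions and 7 comparisons of inputs. Calls were made at 2-fold with adjusted p (all features) not above 0.05. All 6 vit genes passed the filter in all 20 comparisons. Scripts were tested on simulated data. Python 3.11.15 with matplotlib 3.10.9, pandas 2.3.3 and numpy 2.4.6 made the tables and figures.

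Named genes were the members, the genes of 8 lists (58 genes), which are given by counts with values for rme-2, dsc-4, elt-2 and called genes, and the 5 features nearest in profile. Members and lists were chosen with earlier results of these data known. Alternatives were DESeq2 1.42.0, library size alone, protein-coding genes and pseudogenes only, no filter, no minimum fold, near-identical copies summed, a block for the replicate number, each library or lysate left out, and 1 numbering set, which was added after seeing the data. IP and input of 1 number come from 1 lysate by the protocol (both wild-type replicate 2 headers name replicate 1, and the labels were followed), and their deviations correlated over 0.1 in 16 of 18 pairs of a lysate (-0.00297 to 0.523). Amplified reads are not independent molecules, so errors of RPM values are given as the spread over replicates (SD). The standard error of a log2 fold change was derived from the model. It is the absolute log2 fold change divided by the square root of edgeR's quasi-likelihood F statistic. Replicate libraries all differed by more than sampling noise.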

Additional observations from a re-analysis of the deposited data

Results flagged for a closer look

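In 7 cases the effect of IP over input on a vit gene differed between genotypes by the interaction test. For hrde-2 against wild-type the log2 differences were 2.51 for vit-1, 2.60 for vit-2, 2.50 for vit-3, 2.27 for vit-4, 2.51 for vit-5 and 2.53 for vit-6 (33.7% of all features were called higher in this comparison). For mut-2; hrde-2 against wild-type the difference was 1.03 for vit-2 (28.9% of all features called higher).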

How the results depend on the processing

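All 6 vit genes stayed higher in hrde-2 than in wild-type for the difference of IP over input under each of the 13 alternatives that were run, at 1.84 to 3.21. So did the counts called lower in IP than in input in mut-2; hrde-2, in mut-2, in simr-1 and in wild-type.

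For hrde-2 IP over input, 3 genes in place of 5 were called with library size alone and with no filter, and 2 to 6 when 1 library was left out. For the difference of mut-2; hrde-2 from wild-type, with 1 called, the count was 0 with DESeq2, library size alone, protein-coding genes and pseudogenes only or numbering set 2 only, 2 with copies summed, 3 with no minimum fold, 6 with no filter and 0 to 5 with 1 lysate left out. Numbering set 2 alone turned its direction, to -0.67 for vit-1, -0.61 for vit-2, -0.33 for vit-3, -0.50 for vit-4, -0.36 for vit-5 and -0.70 for vit-6. Every fit within set 2 against wild-type rests on a lone wild-type lysate. The median difference of the 6 genes turned in mut-2 against wild-type with DESeq2 (-0.18), with set 2 only (-0.94) and with 1 lysate left out (-0.54 to 0.41), in simr-1 mut-2 against wild-type with no filter (-0.13) and set 2 only (-0.55), and in simr-1 against wild-type with 1 lysate left out (-0.048 to 0.75). In simr-1 that median was 0.22 with all lysates and 1.09 with library size alone. For simr-1 mut-2 against wild-type, no minimum fold gave 1 call in place of 0, and leaving out 1 lysate gave 0 to 1.

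In inputs of mut-2; hrde-2 against wild-type, with 1 called, the count was 3 with library size alone, 2 with no filter, 0 with copies summed or set 2 only, 4 with no minimum fold and 1 to 3 with 1 library left out. In inputs of simr-1 mut-2 against wild-type, with 1 called, it was 3 with library size alone, no filter or no minimum fold, 0 with copies summed or set 2 only and 0 to 3 with 1 library left out. With library size alone, 4980 of 13527 features were called higher for mut-2; hrde-2 and 5372 of 13560 for simr-1 mut-2. Against mut-2 inputs, with 0 called, mut-2; hrde-2 inputs gave 3 with no minimum fold and 0 to 6 with 1 library left out, and simr-1 mut-2 inputs gave 2 with library size alone or no minimum fold and 0 to 4 with 1 library left out. Directions that turned in inputs were those of vit-2 in mut-2 against wild-type (0.27 with library size alone, 0.015 with no filter, 0.00055 with copies summed, 0.018 with set 2 only, -0.47 to 0.012 with 1 library left out), vit-1 in that comparison (-0.083 to 0.48 with 1 library left out), vit-1 in mut-2; hrde-2 against wild-type (0.081 with library size alone), vit-6 there (-0.13 with set 2 only, -0.25 to 0.25 with 1 library left out), vit-6 in simr-1 mut-2 against mut-2 (0.13 with library size alone) and the median in hrde-2 against wild-type (0.0051 with copies summed, -0.16 to 0.057 with 1 library left out). With 1 library left out, vit-3, vit-4 and vit-5 in simr-1 mut-2 against wild-type inputs ran from -1.71 to 1.5, -1.69 to 1.56 and -1.47 to 1.01. Within set 2, vit-3 and vit-4 in mut-2 inputs against wild-type were at 1.19 and 1.27, in place of 1.87 and 1.92, and vit-6 at 0.75 was no longer called. Apart from fewer libraries or features entering these fits, the cause was not tested.

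With the replicate number as a block, which pairs an IP with its input, the difference of mut-2; hrde-2 from wild-type had 3 genes called in place of 1, vit-6 in hrde-2 IP over input and vit-3 and vit-4 in simr-1 mut-2 IP over input became called, and no other call changed in IP over input or its differences. Across genotypes the number does not pair inputs (5 of 21 correlations over 0.1). That block turned vit-3, vit-4 and vit-5 in simr-1 mut-2 against wild-type inputs to -0.45, -0.40 and -0.41 and changed no count of calls in inputs by over 1.5 times.

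Over counts on protein-coding genes and pseudogenes only, the summed level in inputs was 1129 RPM in hrde-2, 3894 in mut-2, 2120 in mut-2; hrde-2, 4039 in simr-1 mut-2 and 1394 in wild-type, and the log2 of IP over input of the sum was -4.01 in mut-2, -3.27 in mut-2; hrde-2 and -3.35 in simr-1 mut-2, against -3.42, -2.92 and -2.97 over all genes.

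Scaling moved the share of higher calls among all calls by over 10 percentage points in some comparisons. With library size alone it was 48.1% in place of 28.1% for simr-1 IP over input, 34.9% in place of 53.4% for wild-type IP over input, and in inputs 45.0% in place of 25.1% (mut-2), 54.2% in place of 22.6% (mut-2; hrde-2) and 56.8% in place of 25% (simr-1 mut-2) against wild-type, and 29.8% in place of 5.23% (mut-2; hrde-2) and 62.3% in place of 33.8% (simr-1 mut-2) against mut-2. For the difference from wild-type it was 61.0% with DESeq2, 90.3% with library size alone and 42.6% with protein-coding genes and pseudogenes only in place of 29.9% in simr-1, and with DESeq2 53.7% in place of 74.7% in mut-2, 43.6% in place of 58.8% in mut-2; hrde-2 and 44.9% in place of 69.7% in simr-1 mut-2.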

Other observations

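In the simr-1 mut-2 input of lysate 1, 18 of 4326 features that reached 50 RPM in a replicate were at least 4-fold above both other replicates, 3 of them being vit-3, vit-4 and vit-5. The others included lem-2, which encodes an inner nuclear membrane protein, at 211, 203 and 196 RPM in the IPs of lysates 1, 2 and 3 and at 1775, 189 and 178 RPM in their inputs. eif-4A3, which encodes an RNA helicase, was at 127, 121 and 135 RPM in the IPs and at 1400, 114 and 114 RPM in the inputs. Unlike the vit copies, both genes stood apart in the input of lysate 1 and not in its IP. C35E7.6 was high in both fractions of lysate 1, with 19.2, 1.57 and 2.57 RPM in the IPs and 665, 25.4 and 27.4 RPM in the inputs. So were gfi-1, at 12.7, 3.08 and 1.67 RPM in the IPs and 89.8, 18.1 and 13.8 RPM in the inputs, and bcf-1, at 12.3, 3.20 and 2.03 RPM in the IPs and 88.2, 19 and 14.5 RPM in the inputs. These genes were picked after their values were seen.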
